A study of Homo sapiens with 4 samples.

Results

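The smooth muscle contractile genes described here are 10 genes chosen by name: ACTA2, TAGLN, MYH11, CNN1, CNN2, MYL9, TPM1, TPM2, CALD1 and LMOD1. Each symbol matched 1 of the 58229 genes of the expression table. They were measured by RNA sequencing in CD31+ cells at day 8 of hematopoietic differentiation from H1, a human embryonic stem cell line in wide laboratory use. CD31, the product of PECAM1, marks endothelium and is kept by many young blood cells, so the gate takes in hemogenic endothelium and its blood progeny. The Control group was H1-derived cells without HAND1 overexpression (2 libraries), and the HAND1_OE group was H1-derived cells that overexpressed the transcription factor HAND1 (2 libraries). Both groups went through the same stepwise cultures, first with activin A and BMP4 and then with VEGF and bFGF. The vector that carried HAND1 is not given in the sources used here. The labels do not say whether the 2 libraries of a group came from separate cultures, and the study's methods speak of independent experiments in general and not of these libraries, so the p-values measure only the spread between these libraries, which may be technical.

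In a contracting smooth muscle cell, thick filaments of myosin pull on thin filaments of actin. Tropomyosin lies along the actin filament, and caldesmon and calponin bind it and slow the myosin motor. Contraction starts when calcium and calmodulin switch on the kinase that phosphorylates the regulatory myosin light chain. Serum response factor (SRF) and its partners of the myocardin family drive most of these genes through a promoter element called the CArG box, and several of the genes are also expressed, at lower levels, in endothelial cells, fibroblasts and early mesoderm. The comparison asks which of these genes differed when HAND1 was overexpressed, in a study of how HAND1 bears on mesenchymal genes during the change from endothelium to blood.

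Values were taken to be FPKM, a unit that the table itself does not name. FPKM are sequenced fragments divided by transcript length and library size, a level per length that can be compared between genes. HAND1 itself measured 12.1 and 14.3 FPKM in Control, against 520 and 517 FPKM in HAND1_OE, in the order replicate 1 and replicate 2 that is kept throughout. The endothelial genes of the gate were present in all 4 libraries, with PECAM1 at 92.0 to 160 FPKM and CDH5 (VE-cadherin) at 222 to 280 FPKM. The libraries summed to between 536284 and 606609 FPKM, their relative depth read from low values was between 0.979 and 1.19, and the counts behind a value are unknown.

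The 10 genes fell into 3 levels. TPM2, CALD1, CNN2, ACTA2 and TPM1, 5 genes in all, were above 60 FPKM in every library. MYL9 and TAGLN, 2 genes, lay between 15 and 40 FPKM in every library. CNN1, LMOD1 and MYH11, 3 genes, were under 4 FPKM in every library, and 2 of them, LMOD1 and MYH11, were under 1 FPKM. In Control the order of the means was TPM2, CALD1, CNN2, ACTA2, TPM1, MYL9, TAGLN, CNN1, LMOD1 and MYH11. The library ranges of CALD1 and CNN2, of ACTA2 and TPM1, and of MYL9 and TAGLN overlapped there, so the order within those pairs is not beyond the spread. In HAND1_OE the order at the top was CALD1, TPM1 and TPM2, with no overlap between them, followed by ACTA2 and CNN2, which overlapped.

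**Figure D1:**
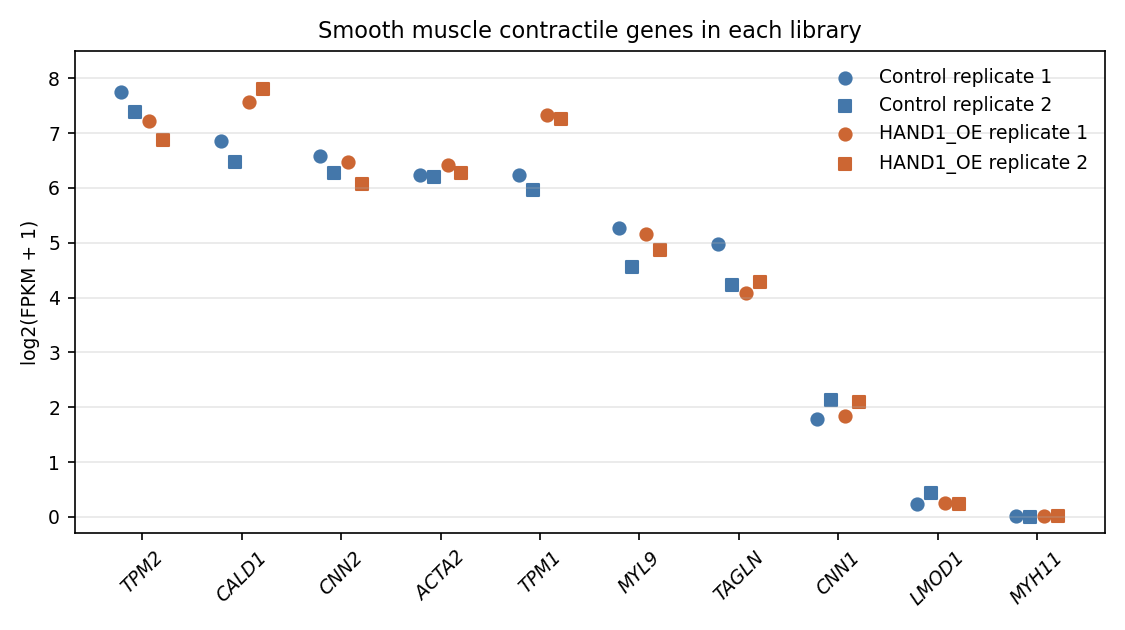
Level of the 10 contractile genes in each of the 4 libraries, plotted as log2(FPKM + 1), with 1 point for each library. TPM1 and CALD1 lie higher in both HAND1_OE libraries than in both Control libraries, TPM2 lies lower, and LMOD1 and MYH11 are under 1 FPKM throughout.

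MYH11 and LMOD1, which mark mature smooth muscle, were the lowest of the group. MYH11, the heavy chain of smooth muscle myosin (chr16:15703172-15857033, reverse strand, GRCh38), was at 0.0157 FPKM in Control replicate 1, listed at 0 in Control replicate 2, and at 0.0101 and 0.0115 FPKM with HAND1 overexpression. LMOD1, leiomodin 1, which starts new actin filaments in smooth muscle (chr1:201896452-201946588, reverse strand), measured 0.179 and 0.350 FPKM in Control, against 0.187 and 0.177 FPKM in HAND1_OE. Neither reached the minimum of 1 FPKM in 2 libraries, so neither was tested, and the groups overlapped for both. MYOCD, which encodes myocardin, was also under 1 FPKM, at 0.346 and 0.188 FPKM in Control and 0.0421 and 0.131 FPKM in HAND1_OE. Its family members MRTFA and MRTFB were present, at 24.3 to 35.9 FPKM and 4.74 to 11.8 FPKM. DES, the muscle intermediate filament desmin, lay between 0.470 and 0.836 FPKM. Some smooth muscle markers were not low, with SMTN (smoothelin) at 125 to 176 FPKM and ACTA2 at 72.2 to 84.3 FPKM. Others were low, with CNN1 at 2.45 to 3.40 FPKM and ACTG2, KCNMB1 and SYNPO2 no higher than 0.122, 0.110 and 0.0636 FPKM. The name of the gene group describes what these genes do in muscle and is not meant to name the cells measured here.

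Promoter windows are shown because the CArG box and the E-box, the element that HAND1 and its partner proteins bind, are written in these letters. RefSeq windows (GRCh38.p14, from 250 bases before to 50 bases after a start site) were held for 7 of the 10 genes, as 12 windows. TAGLN, MYH11 and MYL9 had none. The 4 stretches below are the first 200 bases of a window each, read 5′ to 3′ on the strand of the gene. They are the ACTA2 window 1 at chr10:88952824-88953023 (reverse strand), the CNN2 window at chr19:1026358-1026557 (forward strand), the TPM2 window 2 at chr9:35690107-35690306 (reverse strand) and the CALD1 window 2 at chr7:134745217-134745416 (forward strand). They were picked to show a window with near matches to the CArG box, the window with an exact one, a window of E-boxes and a window with no match. Capitals mark the exact or near CArG boxes and the E-boxes.
ACTA2: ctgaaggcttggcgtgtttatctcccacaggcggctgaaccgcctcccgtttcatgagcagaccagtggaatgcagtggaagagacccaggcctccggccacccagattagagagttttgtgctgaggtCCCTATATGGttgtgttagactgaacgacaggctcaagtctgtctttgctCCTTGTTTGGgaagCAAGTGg
CNN2: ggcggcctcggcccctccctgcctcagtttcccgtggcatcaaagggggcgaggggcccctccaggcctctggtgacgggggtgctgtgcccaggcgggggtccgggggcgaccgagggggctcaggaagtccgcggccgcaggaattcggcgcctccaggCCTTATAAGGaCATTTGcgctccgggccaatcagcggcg
TPM2: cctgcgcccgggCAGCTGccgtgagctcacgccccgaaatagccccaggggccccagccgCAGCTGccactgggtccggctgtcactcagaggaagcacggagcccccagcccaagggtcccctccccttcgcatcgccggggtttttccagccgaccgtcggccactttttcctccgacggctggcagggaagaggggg
CALD1: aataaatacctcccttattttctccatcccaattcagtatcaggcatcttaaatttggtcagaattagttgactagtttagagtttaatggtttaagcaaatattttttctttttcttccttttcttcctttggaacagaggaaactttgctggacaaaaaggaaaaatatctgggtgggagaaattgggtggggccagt

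The CArG box was searched as CC, then 6 bases that are each A or T, then GG, which reads the same way on both strands. An exact match was found in 1 of the 12 windows, the CNN2 window, where CCTTATAAGG begins at -89 from the start site, and in 1.29% of 35116 RefSeq promoter windows of the same length. With 1 of the central 6 bases allowed to be G or C, 3 of the 12 windows matched, against 8.13% of all windows. These were the CNN2 window, the ACTA2 window 1, with CCCTATATGG at -121 and CCTTGTTTGG at -71 from the start site, and a CALD1 window. The E-box CANNTG, searched on both strands, was in 5 of the 12 windows and in 68.7% of all windows. Its form CAGCTG was in 2 windows, those of CNN1 and TPM2, against 17.9% of all windows. The form CATCTG was in 0 of the 12 windows, against 14.7% of all windows. A match is a description of the letters and does not show that a factor binds there.

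Of the 8 genes tested, 1 rose with HAND1 overexpression and 0 fell, at an adjusted p under 0.05 in limma with Benjamini-Hochberg adjustment over all 14622 genes tested. Among all genes tested, 4.16% were called in either direction, with 2.04% higher and 2.11% lower. Before adjustment, 2 of the 8 passed 0.05 as higher (TPM1 and CALD1) and 1 as lower (TPM2), where 17.4% of all genes tested passed in either direction. The groups did not overlap for 4 of the 8 genes, with HAND1_OE higher in 3 (TPM1, CALD1 and ACTA2) and lower in 1 (TPM2). Among all genes tested the groups did not overlap in 46.3%, with HAND1_OE higher in 16.2% and lower in 30.1%. The last 2 shares were 21.6% and 23.8% after quantile normalization, where the counts for the contractile genes were again 3 and 1. The median log2 fold change of the 8 genes was 0.051, beside -0.078 over all genes tested.

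**Figure D2:**
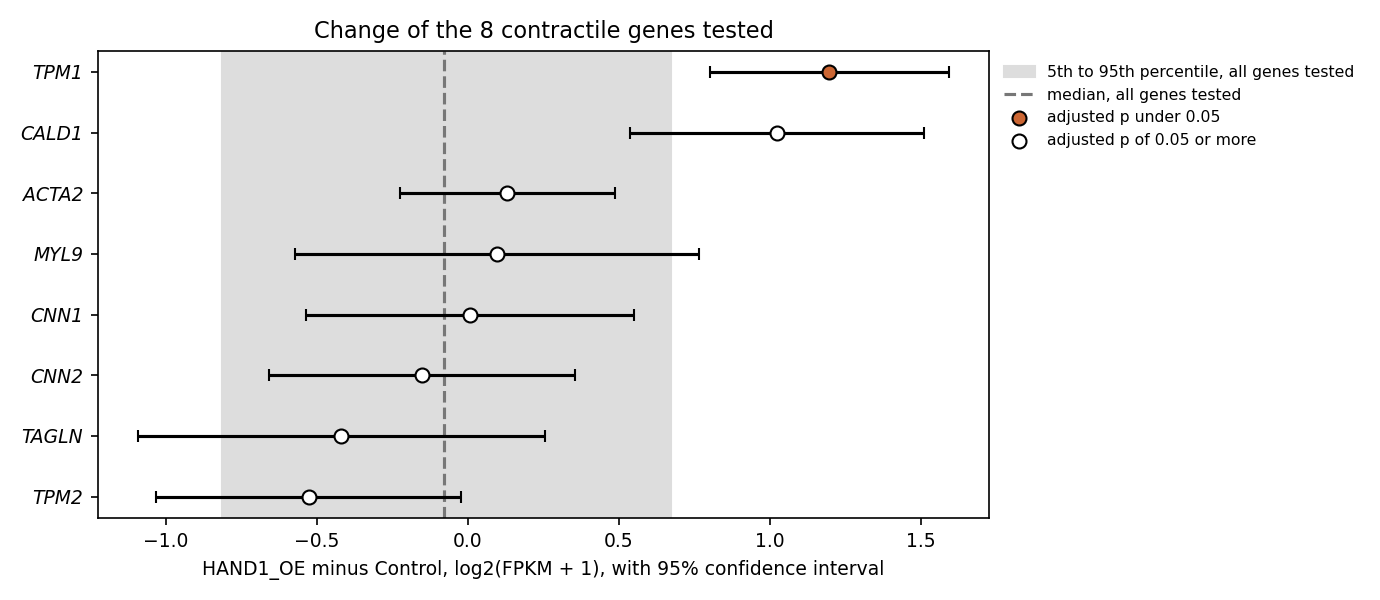
Difference between HAND1_OE and Control for the 8 contractile genes tested, on the log2(FPKM + 1) scale, with 95% confidence intervals from limma. The grey band spans the 5th to the 95th percentile of all 14622 genes tested. TPM1 and CALD1 lie above the band, and the other 6 genes lie within it.

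TPM1, which encodes an alpha chain of tropomyosin (chr15:63042632-63071915, forward strand), was the gene called. It measured 73.9 and 61.6 FPKM in Control, against 161 and 151 FPKM in HAND1_OE. Both HAND1_OE libraries were far above both Control libraries, and the libraries within each group lay close together. The mean went from 67.8 ± 8.72 FPKM to 156 ± 6.69 FPKM (SD, n = 2 each), a 2.30-fold rise. On the log2(FPKM + 1) scale the change was 1.20 (SE 0.16, 95% confidence interval 0.80 to 1.59), with an adjusted p = 0.0220 in limma, and it was larger than that of 98.0% of all genes tested. Without Control replicate 2 the change was 1.07 and the call was lost (adjusted p = 0.0894 in limma), and with all genes above 0 tested the limma adjusted p was 0.162. In bulk RNA, more cells of a kind that express TPM1 and more TPM1 RNA in each cell cannot be told apart, and this holds for every difference given here.

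TPM2, which encodes the beta chain of tropomyosin (chr9:35681992-35691020, reverse strand), stood the other way. It measured 215 and 167 FPKM in Control, against 148 and 116 FPKM in HAND1_OE. The groups did not overlap, but the spread within each was wide, with replicate 2 the lower in both. The means were 191 ± 33.7 FPKM and 132 ± 22.1 FPKM (SD, n = 2 each). The log2 fold change of -0.53 (SE 0.20, 95% confidence interval -1.03 to -0.021) did not pass the test, with an adjusted p = 0.268 in limma.

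The make-up of the tropomyosins was read as the share of each gene in the summed FPKM of TPM1 to TPM4. TPM1 made up 9.01% and 7.92% in Control and 18.0% and 17.2% in HAND1_OE. TPM2 made up 26.2% and 21.5% in Control and 16.6% and 13.2% in HAND1_OE. TPM1 thus held less of the family than TPM2 in both Control libraries and more in both HAND1_OE libraries. TPM3 and TPM4, the tropomyosins of most non-muscle cells, held similar shares in both groups, with TPM3 between 31.1% and 36.2% and TPM4 between 32.9% and 34.4%. The family summed to 820 and 778 FPKM in Control and to 891 and 881 FPKM in HAND1_OE. The ratio of TPM1 to TPM2 was 0.345 and 0.369 in Control and 1.09 and 1.30 in HAND1_OE. An exact two-sided permutation test of this ratio gave p = 0.333, the smallest that 2 libraries against 2 allow, and the ratio was chosen with the values known. A gene's value sums all its transcripts, 34 for TPM1 and 12 for TPM2 in GENCODE release 29, so muscle and non-muscle forms of 1 gene are not separated.

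**Figure D3:**
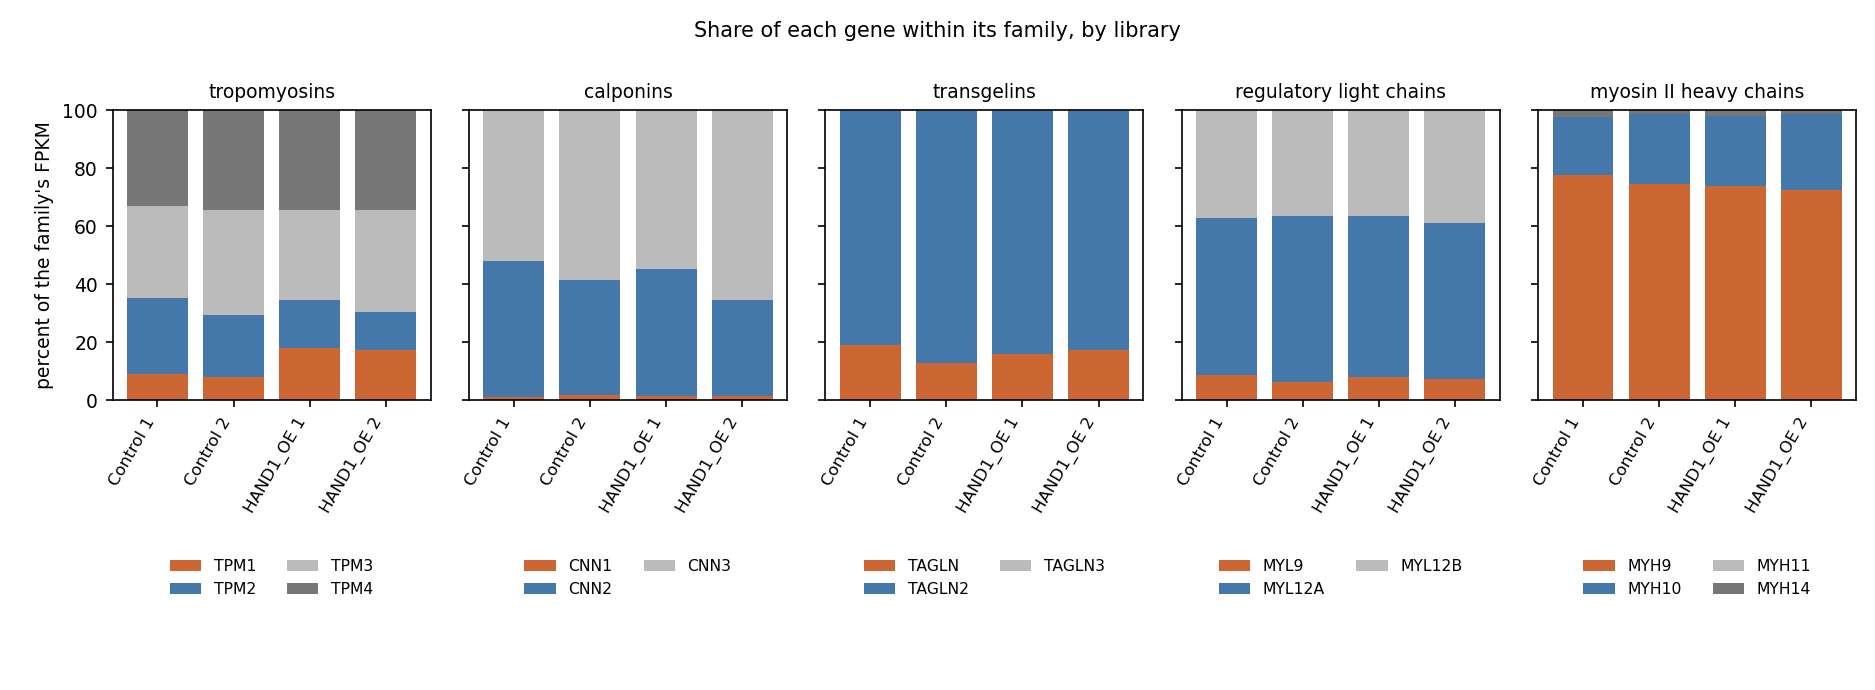
Share of each gene in the summed FPKM of its family, as a percent, for 5 families in each of the 4 libraries. TPM1 takes 7.92% to 9.01% of the tropomyosins in Control and 17.2% to 18.0% in HAND1_OE, while TPM3 and TPM4 keep similar shares.

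ACTA2, smooth muscle alpha actin (chr10:88935074-88991339, reverse strand), measured 74.1 and 72.2 FPKM in Control, against 84.3 and 76.2 FPKM in HAND1_OE. The HAND1_OE libraries were the higher, by a small step. The log2 fold change was 0.13 (SE 0.14, 95% confidence interval -0.22 to 0.49) and the adjusted p was 0.739 in limma. ACTA2 made up 2.45% to 2.94% of the FPKM of all 6 actins, and the non-muscle actins ACTB and ACTG1 made up nearly all the rest. Among the 4 muscle actins ACTA2 held 79.1% and 88.0% in Control and 75.3% and 72.6% in HAND1_OE. ACTC1, the cardiac alpha actin, held most of what was left, at 19.2 and 9.32 FPKM in Control, against 27.4 and 28.6 FPKM in HAND1_OE, and did not pass the test (log2 fold change 1.01, adjusted p = 0.189 in limma). The actins are closely alike in coding sequence, so the division of reads among them by the authors' program is uncertain.

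CALD1, caldesmon, an inhibitor on the thin filament (chr7:134744252-134970728, forward strand), measured 115 and 87.6 FPKM in Control, against 188 and 223 FPKM in HAND1_OE. Each HAND1_OE library was above each Control library. The value sums all 24 CALD1 transcripts of GENCODE release 29, so forms of the gene are not separated. The means were 101 ± 19.4 FPKM and 206 ± 25.0 FPKM (SD, n = 2 each), a ratio of 2.03. The log2 fold change was 1.02 (SE 0.20, 95% confidence interval 0.54 to 1.51), larger than that of 97.3% of all genes tested, and the adjusted p of 0.0542 in limma lay just above the threshold of 0.05. It passed with a filter of 1 FPKM in every library (adjusted p = 0.0434 in limma) and with median-ratio scaling (adjusted p = 0.0363 in limma). It did not pass with quantile normalization, a pseudocount of 0.1 or no trend (adjusted p = 0.0545, 0.0595 and 0.0675 in limma). With all genes above 0 tested the limma adjusted p was 0.235. Without Control replicate 2 the value was 0.83 (adjusted p = 0.196 in limma).

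**Figure D4:**
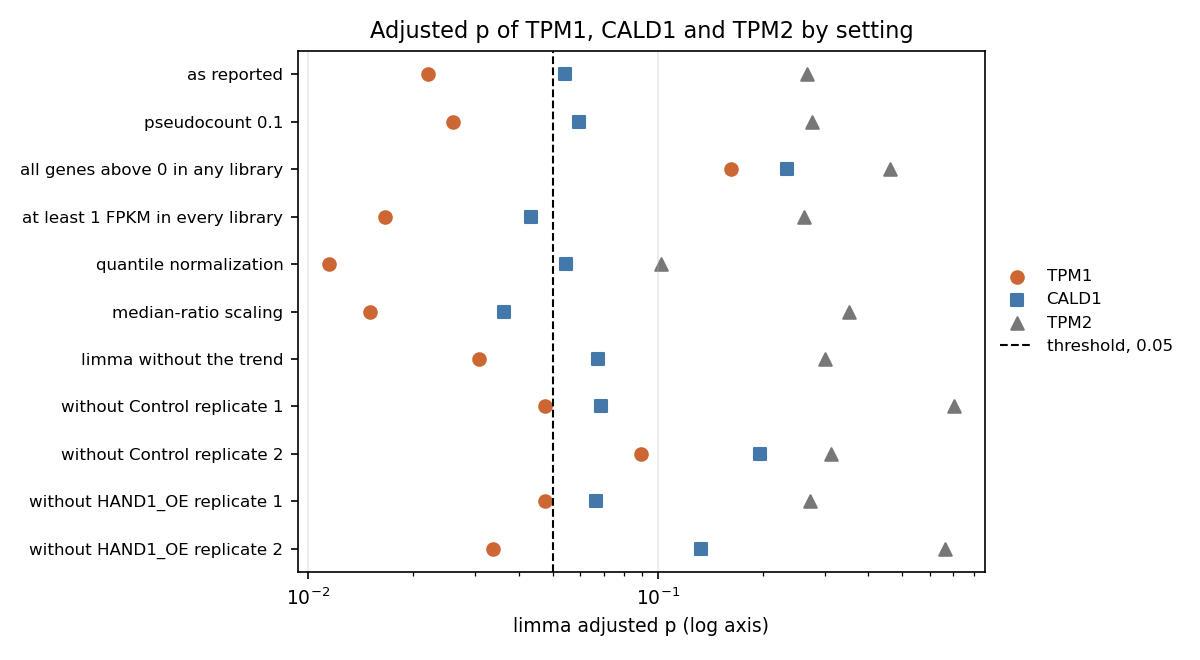
Adjusted p from limma for TPM1, CALD1 and TPM2, on a logarithmic axis, as reported, under 6 other ways of processing and with each library left out in turn. The fit with the replicate number as a block, under which CALD1 and TPM2 also passed, is not drawn. The dashed line is the threshold of 0.05. TPM1 lies at or under 0.0476 except with all genes above 0 tested (0.162) and without Control replicate 2 (0.0894), CALD1 passes with 2 of the settings drawn, and TPM2 with none of those drawn.

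The calponins CNN1 and CNN2, which bind actin and hold back the myosin motor, had overlapping groups, and neither was called. CNN1, the smooth muscle calponin (chr19:11538717-11550323, forward strand), measured 2.45 and 3.40 FPKM in Control, against 2.60 and 3.25 FPKM in HAND1_OE. Its log2 fold change was 0.0063 (95% confidence interval -0.54 to 0.55, adjusted p = 0.992 in limma). CNN2, the calponin of smooth muscle and many other cells (chr19:1026581-1039068, forward strand), measured 94.6 and 76.2 FPKM in Control, against 87.9 and 66.3 FPKM in HAND1_OE. Its log2 fold change was -0.15 (95% confidence interval -0.66 to 0.35, adjusted p = 0.794 in limma). CNN1 made up 1.21% to 1.77% of calponin FPKM, CNN2 32.8% to 47.0%, and CNN3, the calponin of non-muscle cells, the rest. CNN2 is also the gene with the exact CArG box in the windows above, and whether that box bears on its level was not tested. CNN2 shares 338 exonic bases with AC011558.1 on the opposite strand, which was listed at 34.8 to 90.2 FPKM and, like CNN2, was lower in replicate 2 of each group.

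TAGLN, transgelin or SM22 alpha, which crosslinks actin (chr11:117199321-117204782, forward strand), measured 30.4 and 17.7 FPKM in Control, against 15.9 and 18.5 FPKM in HAND1_OE. Control replicate 1 stood above the other 3 libraries, which lay together, so the groups overlapped. The log2 fold change was -0.42 (SE 0.27, 95% confidence interval -1.09 to 0.25) with an adjusted p = 0.527 in limma. Leaving out Control replicate 1 gave -0.045, and leaving out Control replicate 2 gave -0.79. Its non-muscle relative TAGLN2 was the main transgelin, at 129 and 119 FPKM in Control, against 83.8 and 87.5 FPKM in HAND1_OE. Those groups did not overlap, but the log2 fold change of -0.53 did not pass the test (adjusted p = 0.126 in limma). TAGLN made up 12.9% to 19.0% of transgelin FPKM in the 4 libraries.

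MYL9, the regulatory light chain of smooth muscle myosin (chr20:36541484-36551447, forward strand), measured 37.7 and 22.5 FPKM in Control, against 34.7 and 28.2 FPKM in HAND1_OE. The Control libraries enclosed the HAND1_OE libraries. The log2 fold change was 0.097 (SE 0.27, 95% confidence interval -0.57 to 0.76, adjusted p = 0.913 in limma). MYL9 made up 6.31% to 8.60% of its family, and the non-muscle light chains MYL12A and MYL12B the rest. Among the myosin II heavy chains, MYH9, of non-muscle myosin, made up 72.4% to 77.7%, and MYH11 no more than 0.0097% in any library.

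Several of these genes share exonic bases with a gene on the opposite strand, and whether reads were assigned by strand is not given in the sources used here. Reads of such pairs cannot be told apart without strand. TPM1 shares 2070 exonic bases with AC079328.2, which was listed at 0.345 to 1.23 FPKM, far under TPM1. TAGLN shares 446 with PCSK7, at 19.9 to 25.0 FPKM, a level like that of TAGLN. ACTA2 shares 380 with FAS, at 4.61 to 6.05 FPKM. MYH11 shares 765 with NDE1, at 12.3 to 22.4 FPKM, far above MYH11.

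Among the genes around the contractile filaments, 0 of 17 paralogs tested were called, beside 4.16% of all genes tested. These paralogs were actins, tropomyosins, calponins, myosins and their relatives, with a median log2 fold change of 0.082. At an unadjusted p under 0.05 in limma, 2 of them were higher and 1 was lower, where 17.4% of all genes tested passed. Of the genes that control contraction (among them the myosin light chain kinase and phosphatase and the calmodulins), 0 of 20 tested were called, with a median of 0.0029. At an unadjusted p under 0.05 in limma, 2 were higher and 0 lower. MYLK, the kinase of the regulatory light chain, measured 3.91 and 6.25 FPKM in Control, against 1.59 and 3.53 FPKM in HAND1_OE (adjusted p = 0.314 in limma). Of the transcription factors of contractile genes, 0 of 13 tested were called, with a median of -0.21. At an unadjusted p under 0.05 in limma, 0 were higher and 2 lower. SRF measured 19.8 and 19.3 FPKM in Control, against 18.0 and 15.8 FPKM in HAND1_OE (adjusted p = 0.586 in limma). With 4.16% of all genes tested called, few calls fall in lists this short, so 0 calls do not set these lists apart.

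The other structural genes of smooth muscle moved both ways. Of 22 tested, 4 rose, 2 fell and 16 did not pass, with a median of 0.086. The share called was 27.3%, beside 4.16% of all genes tested. The list was chosen with earlier results of these data known, so the share is a description and not a test. The largest rise was in PDLIM3, which binds alpha-actinin, from 7.86 and 7.24 FPKM in Control to 73.8 and 78.3 FPKM in HAND1_OE (log2 fold change 3.17, adjusted p = 0.00335 in limma). ITGA8 and ITGA1, integrin subunits that bind matrix, rose by 2.26 and 1.70, and SYNM, an intermediate filament protein, rose by 2.03 on the log2 scale. CAV1 and CAVIN1, which form the caveolae of smooth muscle and endothelium, were the 2 that fell, with log2 fold changes of -1.38 and -1.53. CAVIN1 measured 144 and 145 FPKM in Control, against 45.3 and 54.1 FPKM in HAND1_OE. SMTN, smoothelin, was at 125 to 176 FPKM in the 4 libraries, with overlapping groups.

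**Figure D5:**
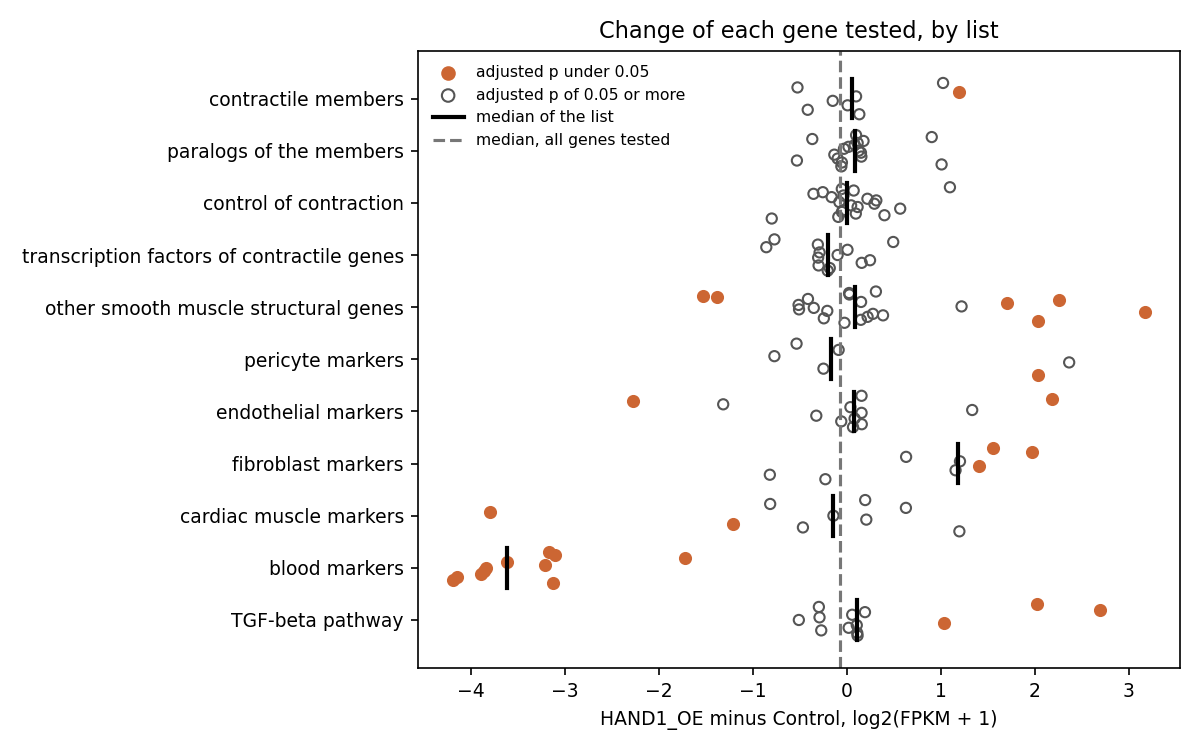
Difference between HAND1_OE and Control on the log2(FPKM + 1) scale for each gene tested in the contractile group and in 10 related lists, with 1 point for each gene. Filled points passed an adjusted p of 0.05, black bars are list medians and the dashed line is the median of all genes tested, -0.078. The contractile group has 1 filled point, TPM1, and all 11 blood markers tested lie to the left.

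Markers of other cells differed alongside TPM1 and CALD1. A sort for CD31 removes cells without CD31, such as most fibroblasts and pericytes, so these lists are given as measured levels and not as a count of such cells. The counts below stand beside 4.16% of all genes tested that were called and 17.4% that passed 0.05 before adjustment. They describe lists that were chosen with earlier results of these data known. Of 8 fibroblast markers tested, 3 rose and 0 fell (POSTN by 1.97, FBN1 by 1.55 and LUM by 1.41 on the log2 scale). Before adjustment, 6 of the 8 passed 0.05 in limma as higher and 1 as lower. The 10 fibroblast markers summed to 740 to 811 FPKM in Control and to 1114 to 1140 FPKM in HAND1_OE, and most of the difference lay in THY1 and COL3A1, neither of which was called. THY1 measured 378 and 383 FPKM in Control, against 553 and 628 FPKM in HAND1_OE, and COL3A1 160 and 97.9 FPKM, against 325 and 241 FPKM. COL1A2 and COL1A1 went the other way, and neither was called. COL1A2 measured 154 and 141 FPKM in Control, against 68.6 and 101 FPKM in HAND1_OE (log2 fold change -0.82, adjusted p = 0.123 in limma). COL1A1 measured 89.9 and 79.7 FPKM in Control, against 70.0 and 74.0 FPKM in HAND1_OE. FAP was at 0 in 3 libraries and DCN no higher than 1.72 FPKM. Of 6 pericyte markers tested, 1 rose, PDGFRB, by 2.03, and 0 fell. Before adjustment, 2 of the 6 passed 0.05 in limma as higher and 2 as lower. CSPG4, the NG2 proteoglycan, measured 1.61 and 8.03 FPKM in Control, against 21.7 and 26.6 FPKM in HAND1_OE, and did not pass after adjustment (adjusted p = 0.0940 in limma). The other 4 tested were below 0, and the median log2 fold change of the 6 was -0.17. ANPEP measured 7.68 and 6.90 FPKM in Control, against 3.53 and 4.18 FPKM in HAND1_OE (adjusted p = 0.0861 in limma). MCAM measured 51.3 and 63.7 FPKM in Control, against 36.5 and 41.9 FPKM in HAND1_OE (adjusted p = 0.193 in limma). The 10 pericyte markers summed to 292 to 301 FPKM in Control and to 265 to 305 FPKM in HAND1_OE, with HIGD1B and COX4I2 at 0 in both HAND1_OE libraries. Most of that sum was RGS5, at 143 to 193 FPKM. Of 11 blood markers tested, 11 fell and 0 rose, and the 12 on the list summed to 911 to 1212 FPKM in Control and to 56.5 to 73.6 FPKM in HAND1_OE. PTPRC, the pan-leukocyte gene CD45, was at or near 0 in all 4 libraries. The part of these cell types in the values of TPM1 and CALD1 was not tested.

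The endothelial, cardiac and TGF-beta lists had 16.7%, 22.2% and 23.1% of their tested genes called, beside 4.16% of all genes tested. These short lists too were chosen with earlier results known, so the shares are descriptions and not tests. Of 12 endothelial markers tested, 1 rose and 1 fell on the log2 scale. VWF rose by 2.18 and CLDN5 fell by 2.27. Before adjustment, 2 of the 12 passed 0.05 in limma as higher (VWF and EMCN) and 2 as lower (CLDN5 and ROBO4). EMCN measured 22.8 and 34.2 FPKM in Control, against 58.5 and 88.3 FPKM in HAND1_OE. ROBO4 measured 7.91 and 10.7 FPKM, against 1.56 and 5.52 FPKM. The list summed to 1775 to 2264 FPKM in Control and to 1987 to 2270 FPKM in HAND1_OE. The largest part of that sum was EGFL7, at 444 to 882 FPKM. Of 9 cardiac muscle markers tested, 0 rose and 2 fell, MYL4 with a log2 fold change of -3.80 and TNNI3 with -1.22. Before adjustment, 2 of the 9 passed 0.05 in limma as higher (TNNT2 and MYL3) and 3 as lower (MYL4, TNNI3 and NKX2-5). TNNT2 measured 1.39 and 1.64 FPKM in Control, against 3.50 and 6.37 FPKM in HAND1_OE. In all, 4 of the log2 fold changes were above 0 and 5 below 0, with a median of -0.14. The 14 cardiac markers summed to 113 to 120 FPKM in Control and to 35.7 to 38.7 FPKM in HAND1_OE, most of which was MYL4 in Control. Of 13 genes of the TGF-beta pathway tested, 3 rose and 0 fell. Before adjustment, 3 of the 13 passed 0.05 in limma as higher and 1 as lower. The genes that rose were TGFBI, LTBP2 and SMAD3, by 2.69, 2.02 and 1.03 on the log2 scale. TGFBI is a secreted matrix protein, LTBP2 belongs by name to the latent TGF-beta binding proteins, and SMAD3 carries the signal to the nucleus. The receptors TGFBR1 and TGFBR2 had overlapping groups.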

How the data were processed

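RNA from 2 Control and 2 HAND1_OE samples was sequenced with Illumina TruSeq libraries, with groups read from the titles. The authors deposited a table of a value for each gene and library. Its unit is not stated, and the deposited values were taken as FPKM, because they are not whole, sum to different totals and the study shows FPKM. The submitters' processing notes name BWA, Bowtie, RSEM and hg19 without roles, but 97.6% of the genes matched to GENCODE release 29 by ID have its GRCh38 coordinates, so positions are given in GRCh38, counted from 1. Counts are unknown, so no counting interval is given. From 58365 rows, 45 rows of Y copies of pseudoautosomal genes and 91 further rows of repeated gene IDs (the highest mean was kept) were left out.

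Values were analysed as log2(FPKM + 1), which understates the changes of low genes, keeping genes that reached 1 FPKM in 2 or more libraries. The groups were compared by the two-sided test of limma 3.58.1 under R 4.3.3, with its mean-variance trend and Benjamini-Hochberg adjustment over all genes tested and a threshold of 0.05. The code was tested on simulated data. Family shares are percent of the summed FPKM. Alternatives were a pseudocount of 0.1, other filters, quantile normalization, median-ratio scaling, no trend, a replicate block, each library left out and a fold change of at least 2.

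All 10 contractile genes are named, and from each related list at most 6 called genes, with defining markers as levels; any other gene was picked with its values known. The genes and lists were chosen with earlier results of these data known.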

Additional observations from a re-analysis of the deposited data

How the results depend on the processing

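Of the 8 contractile genes tested, the number called higher was 2 with a filter of 1 FPKM in every library, 2 with median-ratio scaling and 0 when all genes above 0 were tested, where limma called 0 of 29860 genes (at an unadjusted p under 0.05, 2 members were higher and 0 lower). It ranged from 0 to 1 with a library left out and was 0 without Control replicate 2 (2 higher at an unadjusted p under 0.05 in limma). A lone library is then assumed to vary like the other group. Members whose HAND1_OE libraries all lay below Control numbered 1 with all libraries and 2 to 4 of 8 with a library left out, where the share over all genes tested went from 30.1% to between 42.4% and 47.4%, and the median log2 fold change of the members ranged from -0.074 (without Control replicate 2) to 0.13. The median of all genes was 0.0022 with median-ratio scaling. The 131 related genes had 12 higher and 16 lower calls. With all genes above 0 they had 0 and 0 (at an unadjusted p under 0.05 in limma, 21 and 25), and with 1 FPKM in every library 9 lower calls.

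Single genes near 0 changed sign, and others kept theirs. With a library left out, TAGLN ranged from -0.79 to -0.045, TPM2 from -0.71 to -0.35 and ACTA2 from 0.059 to 0.20. With a library left out, the log2 fold change of CNN1 ranged from -0.17 to 0.18 and was -0.11 without HAND1_OE replicate 2, that of CNN2 from -0.35 to 0.049 with 0.0027 without Control replicate 1, and that of MYL9 from -0.26 to 0.46 with -0.048 without HAND1_OE replicate 1. All genes called were 299 higher and 309 lower, but 141 and 144 without Control replicate 1, and 134 and 137 without Control replicate 2. The causes were not tested.

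With the replicate number as a block, 2 members were called higher (TPM1 and CALD1, adjusted p = 0.0475 in limma), 1 lower (TPM2, adjusted p = 0.0333 in limma), 19 related genes higher, and 597 and 712 of all genes. Samples of the same number deviated together (correlation 0.383 across 14622 genes), but with 2 pairs and no label of a shared batch the numbers were not taken as a pairing. Depth limits are unknown, because FPKM holds no counts.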
